A study of Mus musculus with 12 samples.

Results

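The 10 genes described here encode 8 dual-specificity phosphatases (Dusp1, Dusp4, Dusp5, Dusp6, Dusp7, Dusp10, Dusp14 and Dusp16) and 2 Sprouty proteins (Spry2 and Spry4). They were taken by name from 52015 genes with values and were set out as readouts of negative feedback on MAP kinase signalling. RNA-seq was done in 12 cultures of mpkCCD cells, a mouse cortical collecting duct line. Scr cells carried a scramble guide RNA that targets no gene, are labelled as wild type and gave 2 libraries in each medium (groups Scr_300 and Scr_600). Nfat5-KO cells were 2 CRISPR/Cas9 clones, N1 and N3, and gave 4 libraries in each medium (Nfat5-KO_300 and Nfat5-KO_600). Isotonic medium had 300 mosmol/kg. Hypertonic medium had 600 mosmol/kg, reached with 100 mM NaCl and 100 mM urea, and cultures lasted 5 days. All groups shared the same base medium with serum, on plastic.

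MAP kinases (ERK, JNK and p38) are switched on by phosphorylation of a threonine and a tyrosine in the same loop, and dual-specificity phosphatases remove both phosphates. Several of these phosphatases are transcribed in response to ERK itself, so that their mRNA rises and decays with the pathway. Sprouty proteins act further up and restrain signalling from receptor tyrosine kinases through Ras to ERK. In the renal medulla, high NaCl activates MAP kinases, and the transcription factor NFAT5 drives genes that load cells with protective osmolytes. The data measure mRNA only, and neither kinase activity nor phosphatase protein was measured.

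RefSeq promoter sequences (GRCm38.p6, from 250 bases before to 50 bases after the start of transcription) matched 8 of the 10 genes, namely Dusp1, Dusp5, Dusp6, Dusp7, Dusp10, Dusp14, Dusp16 and Spry2. Those of 4 genes that differed by at least 2-fold between groups are shown, because Dusp5 and Dusp10 had nearly the same pattern of levels, while Dusp6 and Dusp1 had the largest differences between genotypes. Each is written 5′ to 3′ on the gene's own strand, and capitals mark the cyclic AMP response element (TGACGTCA or its first letters TGACG, on either strand) and the CArG box of the serum response element. They lie at chr17:26508423-26508722 (minus strand) for Dusp1, chr19:53528895-53529194 (plus) for Dusp5, chr10:99262981-99263280 (plus) for Dusp6 and chr1:184034131-184034430 (plus) for Dusp10.
Dusp1: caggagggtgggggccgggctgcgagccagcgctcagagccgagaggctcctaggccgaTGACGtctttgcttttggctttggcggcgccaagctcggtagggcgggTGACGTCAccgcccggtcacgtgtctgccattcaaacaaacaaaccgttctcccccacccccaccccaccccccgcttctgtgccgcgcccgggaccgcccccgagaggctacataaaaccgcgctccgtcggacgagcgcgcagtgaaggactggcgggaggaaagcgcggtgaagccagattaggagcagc
Dusp5: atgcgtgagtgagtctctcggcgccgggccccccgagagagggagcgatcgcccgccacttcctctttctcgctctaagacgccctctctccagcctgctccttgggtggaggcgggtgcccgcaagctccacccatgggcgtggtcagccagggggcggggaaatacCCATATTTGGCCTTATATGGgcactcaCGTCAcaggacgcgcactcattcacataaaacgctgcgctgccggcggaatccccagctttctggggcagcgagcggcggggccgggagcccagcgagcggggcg
Dusp6: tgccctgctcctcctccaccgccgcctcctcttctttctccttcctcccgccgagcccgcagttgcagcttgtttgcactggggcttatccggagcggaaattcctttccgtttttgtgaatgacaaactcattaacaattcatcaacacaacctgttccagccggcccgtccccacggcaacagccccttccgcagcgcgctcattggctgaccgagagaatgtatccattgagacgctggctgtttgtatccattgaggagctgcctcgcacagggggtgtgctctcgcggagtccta
Dusp10: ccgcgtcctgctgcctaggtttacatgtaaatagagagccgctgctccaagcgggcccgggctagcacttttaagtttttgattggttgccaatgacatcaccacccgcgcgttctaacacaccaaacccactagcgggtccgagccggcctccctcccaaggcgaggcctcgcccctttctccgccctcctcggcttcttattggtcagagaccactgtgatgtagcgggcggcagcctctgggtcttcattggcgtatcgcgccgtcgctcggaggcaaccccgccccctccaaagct

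In the Dusp1 promoter the full element TGACGTCA began 143 bases before the start site, and it is present in 1.79% of 32851 RefSeq promoters of this length. The shorter TGACG, which is also contained in the full element, was found in Dusp1, Dusp5 and Dusp16 and in 20.8% of all promoters. Dusp5 had 2 adjacent CArG boxes, which bind serum response factor, beginning 82 and 72 bases before the start site, and 1.63% of all promoters hold one. The letters CCGGAA were in Dusp14 and Spry2 and in 14.9% of all promoters. They are a strict form of the ETS site of ternary complex factors, which ERK phosphorylates, and looser forms were not searched. Of the 8 promoters, 0 matched the AP-1 site TGANTCA (7.81% of all promoters), the TonE site of NFAT5 (4.96%) or the TATA box TATAAA (13.6%). In the windows of Dusp6 and Dusp10 none of the 7 motifs was found on either strand. A match is a description of the letters, and no match says only that these letters are not in this window. Dusp5 and Dusp10, whose levels ran side by side, thus differ in these motifs within the windows searched. The windows of Dusp1, Dusp10 and Dusp14 lie wholly inside the gene positions given below, downstream of the annotated 5′ end. Sequence at those further upstream ends was not searched.

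The table holds 1 FPKM value (a read count scaled by gene length and by the library's mapped reads) for each gene and group, calculated by the authors. No value per library is in it, so no difference below has a replicate check, an SD or a p-value, and higher and lower describe the group values alone. Differences are log2 ratios of FPKM + 0.1. The added 0.1 understates differences of low genes. A gene was compared where either group reached 0.5 FPKM. The term 2-fold means a log2 ratio of at least 1 or at most -1. All genes but Spry4, 9 of 10, had at least 1.74 FPKM in each group and entered every comparison, whichever group was high. Spry4 stayed under 0.5 FPKM in all 4 groups and entered none. FPKM sums per group were between 212247 and 253756, and the read depth behind them is unknown.

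The knockout label can be checked only in part: Nfat5 itself had 5.61 FPKM in Scr_300, 7.93 in Scr_600, 3.47 in Nfat5-KO_300 and 6.88 in Nfat5-KO_600. A CRISPR/Cas9 deletion can leave a transcript in place, and the deleted bases are not given in the sources used here. Genes known to need NFAT5 were also checked. Akr1b3, aldose reductase, had 23.8, 175, 14.5 and 39.2 FPKM in the same order of groups. Of 6 osmotic response genes, 4 (Slc6a12, Slc5a3, Akr1b3 and Hspa1b) were at least 2-fold higher in Scr_600 than in Scr_300 (4.81% of all genes). In hypertonic medium the same 4 were at least 2-fold lower in the knockout (3.68% of all genes). Nfat5 and Slc6a6 were not among them, and Slc6a6 had 33.7 FPKM in Scr_600 and 33.0 in Nfat5-KO_600. Within the knockout, Slc6a6 and Akr1b3 were at least 2-fold higher in hypertonic than in isotonic medium (6.25% of all genes). As to the cell type, all 5 epithelial markers (Epcam, Cdh1, Krt8, Krt18 and Krt19) were expressed, with summed levels from 1001 to 1645 FPKM. Of 8 principal cell markers, 3 or 4 reached 0.5 FPKM in a group. Aqp2, which defines these cells, had 0 to 0.245 FPKM. Principal cell markers summed to 9.79 FPKM in Scr_300, 8.66 in Scr_600, 20.5 in Nfat5-KO_300 and 46.4 in Nfat5-KO_600, with Gata3 alone at 3.41, 4.33, 11.8 and 30.0 FPKM, and their part in the results was not tested. Summed markers of intercalated cells (5 genes) were at 0.499 to 1.04 FPKM, of fibroblasts (5) at 0.0521 to 0.249 and of endothelium (3) at 0.0377 to 0.192. Leukocyte markers (3) summed to 1.44 to 2.62 FPKM, nearly all of it Cd68, with Cd3e at 0 in all groups. In bulk RNA, fewer cells of a type and less RNA per cell cannot be told apart.

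Dusp6 stood out among the 10 genes. It encodes a cytoplasmic phosphatase that is specific for ERK and serves widely as a transcriptional readout of ERK activity. Dusp6 had 10.2 FPKM in Scr_300, 58.7 in Scr_600, 7.70 in Nfat5-KO_300 and 10.3 in Nfat5-KO_600. One group, Scr_600, was thus far above the other 3, which lay close to each other. Hypertonic medium went with a 5.77-fold higher level in Scr cells and a 1.34-fold higher level in Nfat5-KO cells. The log2 ratio of Scr_600 to Scr_300 was 2.52, and 103 of 12929 genes had a higher one. Nfat5-KO_600 against Scr_600 gave -2.50, and 75 of 13063 genes had a lower ratio. At 300 mosmol/kg the genotypes differed little in Dusp6, with a log2 ratio of -0.39. The difference between the hypertonic log2 ratios, Nfat5-KO minus Scr, was -2.10, and 82 of 13414 genes had a lower one. Dusp6 lies at chr10:99263231-99267489 (plus strand, GRCm38, GENCODE M21, ENSMUSG00000019960.8), with 4 merged exons and 3132 exon bases. Genes within 10 Mb of it had median log2 ratios of -0.10 in both Scr_600 against Scr_300 (54 genes) and Nfat5-KO_600 against Scr_600 (52 genes).

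**Figure D1:**
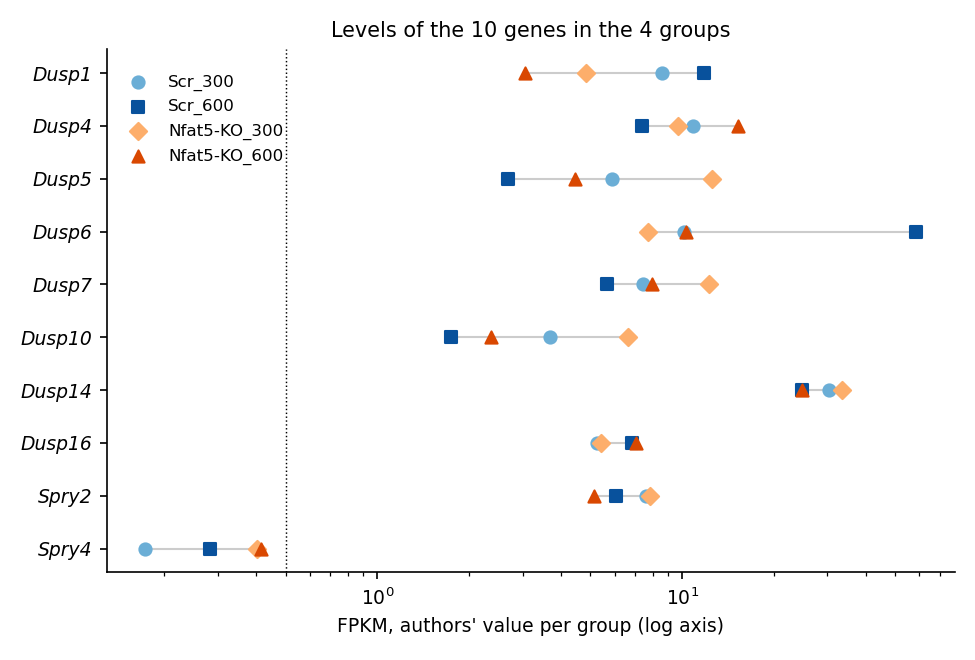
Level of each of the 10 genes in the 4 groups, as FPKM on a log axis, with 1 point per group (the authors' value) and a grey line from the lowest to the highest; no error bars can be drawn from 1 value per group, and the dotted line marks 0.5 FPKM. Dusp6 in Scr_600 lies at 58.7 FPKM, apart from its other 3 groups, while Dusp14 and Dusp16 each span a narrow range and Spry4 lies left of the dotted line.

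Dusp1, the nuclear phosphatase of ERK, JNK and p38 that is made as an immediate early response, was lower in knockout cells in both media. It had 8.60 FPKM in Scr_300, 11.8 in Scr_600, 4.82 in Nfat5-KO_300 and 3.05 in Nfat5-KO_600. Both knockout values were below both Scr values, and the gap was wider in hypertonic medium. The log2 ratio of knockout to Scr was -0.82 at 300 mosmol/kg and -1.92 at 600 mosmol/kg, where 132 of 13063 genes had a lower ratio. The direction with osmolality differed between genotypes: the log2 ratio of 600 to 300 mosmol/kg was 0.45 in Scr and -0.64 in Nfat5-KO cells, a difference of -1.09. That difference was under 2-fold with a pseudocount of 1 (-0.94) or with columns scaled to the same sum (-0.99). Dusp1 lies at chr17:26505590-26562128 (minus strand, ENSMUSG00000024190.7). Its annotated exons share 11 bases (0.332%) with Ergic1 on the opposite strand, which had 24.1, 31.0, 21.7 and 21.3 FPKM in Scr_300, Scr_600, Nfat5-KO_300 and Nfat5-KO_600. Within 10 Mb, the median log2 ratio of knockout to Scr was -0.12 at 300 mosmol/kg (321 genes) and -0.12 at 600 mosmol/kg (339 genes).

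Dusp5 and Dusp10 shared a pattern unlike that of Dusp6 and were lower in hypertonic medium in both genotypes. Dusp5 is a nuclear, ERK-specific phosphatase, and Dusp10 acts on JNK and p38. Dusp5 had 5.91 FPKM in Scr_300, 2.69 in Scr_600, 12.6 in Nfat5-KO_300 and 4.45 in Nfat5-KO_600. Dusp10 had 3.70, 1.74, 6.64 and 2.36 FPKM in the same order. For both genes the isotonic knockout value was the highest and the hypertonic Scr value the lowest, and each medium had the knockout above Scr. In hypertonic against isotonic medium the log2 ratio of Dusp5 was -1.11 in Scr and -1.48 in Nfat5-KO cells, and that of Dusp10 was -1.05 and -1.46. Against Scr, Dusp5 in the knockout had a log2 ratio of 1.08 in isotonic and 0.71 in hypertonic medium, and Dusp10 had 0.83 and 0.42. In the profile over the 4 groups, centred on the log2 scale, the distance between Dusp5 and Dusp10 was 0.273, against 0.206 for the closest of all pairs, Dusp14 and Spry2, and 3.72 for Dusp5 and Dusp6, the farthest. With 4 values per profile, this likeness is a description.

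Dusp5 lies at chr19:53529109-53542431 (plus strand, ENSMUSG00000034765.6), and 547 of its exon bases (22.1%) are also exon of an antisense gene, AC137853.2, which has no value here. The counting is not stated to use strand, so reads of the 2 genes cannot be told apart. Dusp10 lies at chr1:184013302-184075636 (plus strand, ENSMUSG00000039384.8) and shares no exon base with another gene. In Nfat5-KO_300 against Scr_300 the 108 genes within 10 Mb of Dusp10 had a median of -0.23, the opposite sign to Dusp10 itself. Around Dusp5 that median was -0.05 (105 genes).

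Dusp4, a nuclear phosphatase of ERK, was highest in the hypertonic knockout. It had 10.8 FPKM in Scr_300, 7.39 in Scr_600, 9.71 in Nfat5-KO_300 and 15.2 in Nfat5-KO_600. The isotonic groups lay close together (log2 ratio -0.16), and the hypertonic groups were apart (1.04). Hypertonic medium went with a lower level in Scr (-0.55) and a higher one in Nfat5-KO cells (0.65), a difference of 1.19 that was exceeded by 358 of 13414 genes. Dusp4 thus had the opposite sign to Dusp1 and Dusp6 in this difference. Dusp4 lies at chr8:34807297-34819894 (plus strand, ENSMUSG00000031530.6), and genes within 10 Mb had a median of -0.08 in Nfat5-KO_600 against Scr_600 (68 genes).

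**Figure D2:**
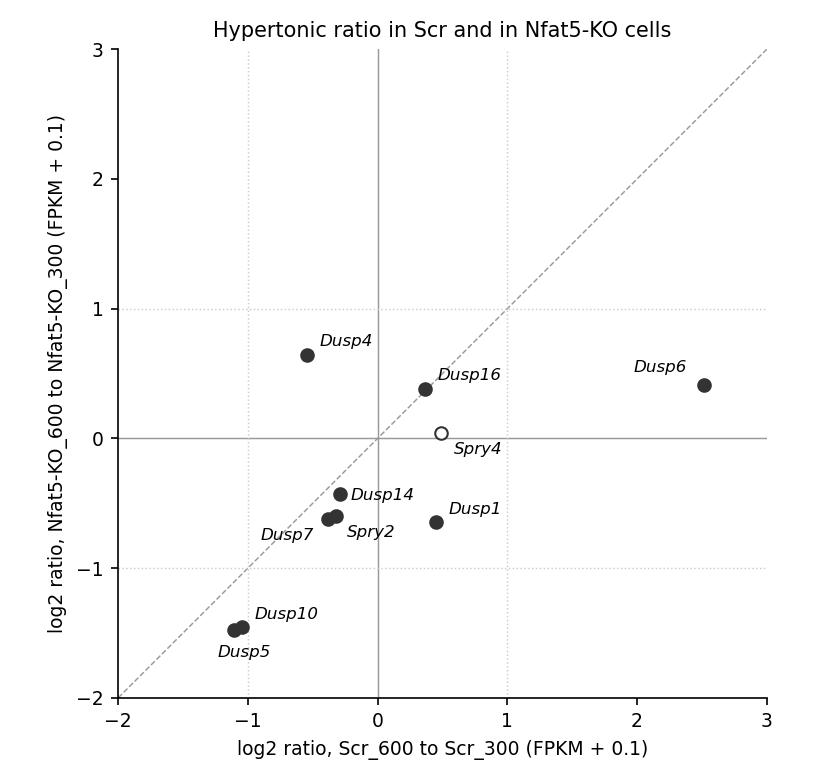
Log2 ratio of hypertonic to isotonic medium (FPKM + 0.1) in Scr cells on the horizontal axis and in Nfat5-KO cells on the vertical axis, 1 point per gene, with the dashed line where both are equal, dotted lines at 2-fold and an open circle for Spry4, which is under 0.5 FPKM. Dusp6 lies far to the right of the dashed line (2.52 in Scr, 0.41 in Nfat5-KO), Dusp5 and Dusp10 lie together at the lower left, and Dusp4 and Dusp1 have opposite signs in the 2 genotypes.

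Dusp7, the close relative of Dusp6 that also acts on ERK in the cytoplasm, did not share the pattern of Dusp6. It had 7.46 FPKM in Scr_300, 5.69 in Scr_600, 12.3 in Nfat5-KO_300 and 7.94 in Nfat5-KO_600. As with Dusp5 and Dusp10, the isotonic knockout was highest and the hypertonic Scr lowest, but no comparison reached 2-fold. The log2 ratio of knockout to Scr was 0.71 at 300 mosmol/kg and 0.47 at 600 mosmol/kg, and that of hypertonic to isotonic medium was -0.38 in Scr and -0.62 in Nfat5-KO cells. In the centred log2 profiles, Dusp6 and Dusp7 were 2.99 apart.

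Dusp14, Dusp16 and Spry2 differed least with genotype. Dusp14, a small atypical phosphatase without the kinase-docking domain of the classical members, had 30.3 FPKM in Scr_300, 24.8 in Scr_600, 33.4 in Nfat5-KO_300 and 24.8 in Nfat5-KO_600. It was lower in hypertonic medium in both genotypes (-0.29 in Scr, -0.43 in Nfat5-KO), and at 600 mosmol/kg the genotypes had the same value to 3 digits. Dusp16, which acts on JNK and p38 as Dusp10 does, had 5.27, 6.83, 5.40 and 7.07 FPKM. Its log2 ratio of hypertonic to isotonic medium was 0.37 in Scr and 0.38 in Nfat5-KO cells, the opposite sign to Dusp10, and knockout against Scr gave 0.03 and 0.05. Spry2 had 7.59, 6.06, 7.83 and 5.13 FPKM and was lower in hypertonic medium in both genotypes (-0.32 and -0.60). Spry4, which like Spry2 is transcribed in response to receptor tyrosine kinases in many tissues, was listed at 0.173, 0.283, 0.402 and 0.416 FPKM, and no difference between such levels was read. Spry1, from the list of related genes, was the most abundant Sprouty gene in 3 of the groups, at 7.41, 8.17, 8.68 and 9.19 FPKM.

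The remaining positions (GRCm38, GENCODE M21) are chr9:106368632-106375724 for Dusp7 (plus strand, ENSMUSG00000053716.9), chr11:84048041-84069261 for Dusp14 (minus, ENSMUSG00000018648.15), chr6:134715468-134792625 for Dusp16 (minus, ENSMUSG00000030203.17), chr14:105891947-105896819 for Spry2 (minus, ENSMUSG00000022114.5) and chr18:38586247-38601415 for Spry4 (minus, ENSMUSG00000024427.7). All 10 genes are protein-coding, and of these 5 none shares exon bases with another annotated gene. Median log2 ratios of genes within 10 Mb of these 5 genes were between -0.10 and 0.11 for Nfat5-KO_600 against Scr_600.

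FPKM is per length, so levels of different genes can be set side by side, although without a spread between libraries no neighbours in these orders can be called different. In Scr_300 the order from the top was Dusp14, Dusp4, Dusp6, Dusp1, Spry2, Dusp7, Dusp5, Dusp16, Dusp10 and Spry4. Dusp14, at 30.3 FPKM, was above 86.9% of the genes that reached 0.5 FPKM there, and Dusp10, at 3.70, was above 34.8%. In Scr_600 Dusp6 moved to the top and was above 94.5% of such genes. In Nfat5-KO_300 Dusp5 and Dusp7 came after Dusp14, and in Nfat5-KO_600 Dusp4 did. Summed over the 10 genes, the levels were 90.0 FPKM in Scr_300, 126 in Scr_600, 101 in Nfat5-KO_300 and 80.8 in Nfat5-KO_600. Dusp6 made up 46.6% of the sum in Scr_600. Without Dusp6 the sums were 79.9, 67.2, 93.0 and 70.5 FPKM, so that Scr_600 was then the lowest group instead of the highest.

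Nfat5-KO against Scr cells in isotonic medium was the first comparison of the design. With 2 clones combined in 1 value, loss of NFAT5 and differences that came with the clones cannot be told apart. The same limit holds for every difference between genotypes given here. In Nfat5-KO_300 against Scr_300, 1 of the 9 genes, Dusp5, was at least 2-fold higher (1.73% of all 12704 genes compared) and 0 were at least 2-fold lower (2.44% of all genes). The median log2 ratio was 0.05 over the 9 genes, with 6 above 0 and 3 below, and -0.0015 over all genes, of which 49.8% were above 0. With a pseudocount of 1 the ratio of Dusp5 was 0.97, under 2-fold. Dusp5, Dusp10 and Dusp7 had the highest ratios and Dusp1 the lowest. These 4 lay outside the central range from -0.67 to 0.60 that holds all but the lowest and highest 5% of genes.

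The same comparison in hypertonic medium gave wider differences. In Nfat5-KO_600 against Scr_600, 1 of the 9 genes, Dusp4, was at least 2-fold higher (3.76% of all 13063 genes) and 2, Dusp1 and Dusp6, were at least 2-fold lower (3.68% of all genes). Dusp4 just passed, at 1.04, and fell short with a pseudocount of 1 (0.95), while Dusp1 and Dusp6 were well past, at -1.92 and -2.50. The median over the 9 genes was 0.05 against -0.02 over all genes. With columns scaled to the same sum, 654 of all genes were 2-fold higher and 407 lower, in place of 491 and 481.

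**Figure D3:**
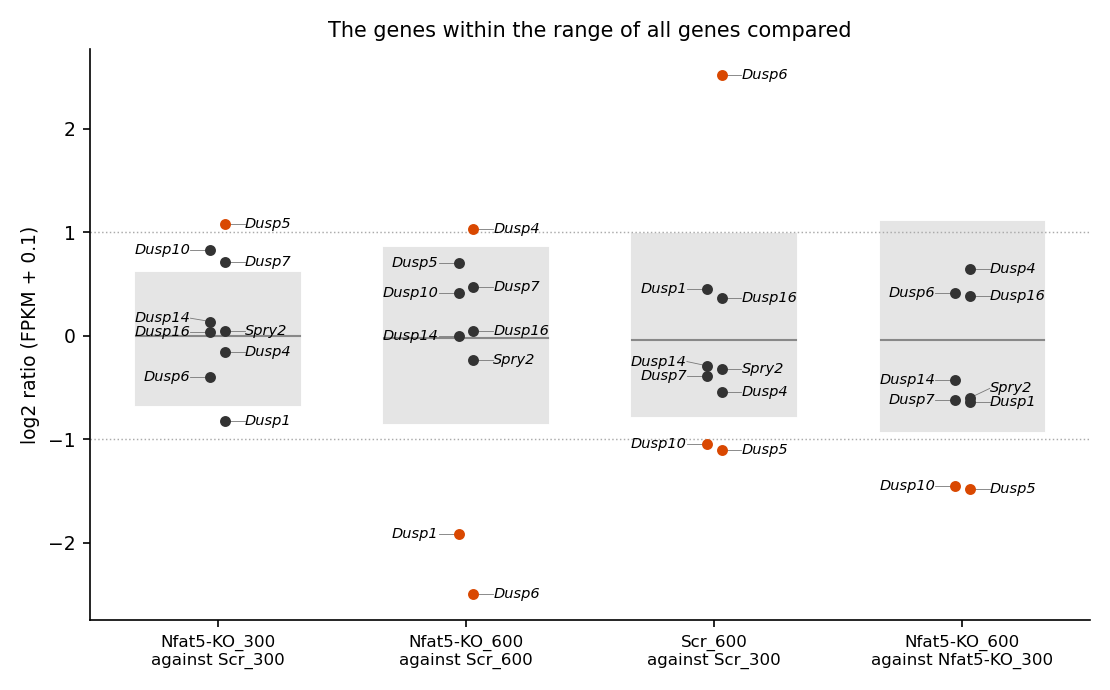
Log2 ratios (FPKM + 0.1) of the 9 genes that reached 0.5 FPKM in the 4 comparisons, 1 point per gene, with orange for at least 2-fold; the grey box holds the genes between the 5th and the 95th percentile of all genes compared and the grey line is their median. Dusp6 lies outside the box in Nfat5-KO_600 against Scr_600 (-2.50) and in Scr_600 against Scr_300 (2.52) but within it in the other comparisons, and Dusp5 and Dusp10 lie below it in both hypertonic comparisons.

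Hypertonic medium was compared with isotonic medium within each genotype. In Scr_600 against Scr_300, 1 of the 9 genes, Dusp6, was at least 2-fold higher (4.81% of all 12929 genes) and 2, Dusp5 and Dusp10, were at least 2-fold lower (2.86% of all genes). Dusp5 and Dusp10 were close to the threshold, and both fell short of it with a pseudocount of 1 (-0.91 and -0.78) and with columns scaled to the same sum (-0.98 and -0.92). The median was -0.32 over the 9 genes, with 3 above 0 and 6 below, and -0.04 over all genes, of which 54.6% were below 0. In Nfat5-KO_600 against Nfat5-KO_300, 0 of the 9 genes were at least 2-fold higher (6.25% of all 12982 genes) and the same 2, Dusp5 and Dusp10, were at least 2-fold lower (4.11% of all genes). The median was -0.60 over the 9 genes and -0.04 over all genes. Columns scaled to the same sum shifted the median of all genes in this comparison to 0.20 and gave 1318 genes 2-fold higher and 274 lower, in place of 812 and 534. Relative to that shifted median, Dusp5 was at -1.45 and Dusp10 at -1.43. No log2 ratio of the 9 genes changed sign under any of the other scalings, pseudocounts and filters tried.

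The difference between the hypertonic log2 ratios, Nfat5-KO minus Scr, asks whether the hypertonic ratio differed between genotypes. Of the 9 genes, 1 (Dusp4) was at least 2-fold higher (3.88% of all 13414 genes) and 2 (Dusp1 and Dusp6) were at least 2-fold lower (3.16% of all genes), with a median of -0.28 over the 9 and -0.01 over all genes. The other 6 were between -0.41 for Dusp10 and 0.01 for Dusp16. The 2 genes with the lowest hypertonic ratios in both genotypes, Dusp5 and Dusp10, were thus not those with the widest difference between genotypes. All 5 comparisons draw on the same 4 group values, and each shares groups with others.

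The genes with profiles most like that of Dusp6 were searched among 10479 genes that reached 1 FPKM in every group, as the distance between log2 profiles centred over the 4 groups. The closest were Ifi27 (0.149), Nadk2 (0.186), 1810041L15Rik (0.388), Rasl11b (0.473) and Slc45a3 (0.474), against a median distance of 2.38 over all genes searched. Ifi27, an interferon-induced gene, had 2.58 FPKM in Scr_300, 17.5 in Scr_600, 2.18 in Nfat5-KO_300 and 2.83 in Nfat5-KO_600. Nadk2, the mitochondrial NAD kinase, had 6.11, 33.0, 4.27 and 5.16 FPKM. All 5 had one high group, Scr_600, as Dusp6 did, which follows from picking them by this distance.

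The mRNAs of the kinases themselves were set beside those of their inhibitors. Of 23 genes of the Ras-ERK cascade, from receptor adaptors to ERK and its substrates, all reached 0.5 FPKM, and the count at least 2-fold different was 0 in each of the 4 comparisons, in which 4.17% to 10.4% of all genes were 2-fold different in either direction. At such shares a count of 0 among so few genes is no result about the list, and the same holds for the shorter lists that follow. The median log2 ratio of the 23 genes was 0.14 in Nfat5-KO_300 against Scr_300, 0.16 in Nfat5-KO_600 against Scr_600, -0.02 in Scr_600 against Scr_300 and -0.04 in Nfat5-KO_600 against Nfat5-KO_300. The widest differences were in Sos2, an exchange factor that loads Ras with GTP (0.75 in Nfat5-KO_600 against Nfat5-KO_300), and Rps6ka3, an ERK-activated kinase (-0.73 in Nfat5-KO_600 against Scr_600). Of 27 genes of the p38 and JNK cascades, 25 reached 0.5 FPKM in a group. Among them Map3k6 was the 1 gene at least 2-fold higher in Nfat5-KO_600 than in Scr_600 (3.76% of all genes). It had 0.520 against 0.171 FPKM, near the 0.5 FPKM filter. Rps6ka4, a nuclear kinase downstream of p38, was the 1 gene at least 2-fold higher in Nfat5-KO_600 than in Nfat5-KO_300 (6.25% of all genes). Its levels were 18.4 against 8.84 FPKM. A count of 1 among 25 is near these shares and is no result about the list. Mapk14, the main p38 gene, had 37.6, 42.1, 39.0 and 38.5 FPKM.

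Related inhibitors were counted in the same way. Of 19 other MAP kinase phosphatase and DUSP genes, 10 reached 0.5 FPKM in a group. One of them, Dusp2, an inducible nuclear phosphatase, was at least 2-fold higher in Nfat5-KO_300 than in Scr_300 (1.73% of all genes). In the difference of the hypertonic log2 ratios it was at least 2-fold lower (-1.49, 3.16% of all genes). A count of 1 among 10 is no result about the list. Its levels were low, at 0.490, 0.976, 1.26 and 0.783 FPKM in Scr_300, Scr_600, Nfat5-KO_300 and Nfat5-KO_600. Dusp8, which acts on JNK and p38, had 3.09, 4.74, 3.48 and 2.70 FPKM, and its hypertonic log2 ratio was 0.60 in Scr and -0.35 in Nfat5-KO cells. Of 5 other Sprouty and Spred genes, 4 reached 0.5 FPKM and 0 were 2-fold different, a count near the share of all genes. The widest differences were in Spred3 (1.18, 1.31, 1.92 and 2.00 FPKM) and Spred1 (7.89, 6.57, 6.56 and 6.05 FPKM), which restrain Ras.

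Transcripts that depend on ERK in many cells were listed apart from the 10 genes, and 17 of 24 reached 0.5 FPKM in a group. In Nfat5-KO_600 against Nfat5-KO_300, 17 of 17 had a log2 ratio below 0 (52.9% of all genes). The median was -0.77 against -0.04 over all genes, and 5 (Fosl1, Ier3, Ccnd1, Etv4 and Ereg) were at least 2-fold lower (4.11% of all genes). With columns scaled to the same sum, Fos and Hbegf turned above 0 and the median was -0.52. Fosb, with 0.221 FPKM in Nfat5-KO_300 and 0.469 in Nfat5-KO_600 before scaling, entered and was the 1 gene at least 2-fold higher. Under that scaling 2 listed genes were at least 2-fold lower, and of all genes 1318 were 2-fold higher and 274 lower. In Scr_600 against Scr_300 the median was -0.27 and 11 of 16 were below 0 (54.6% of all genes). Emp1 (-1.63) was the one gene at least 2-fold lower (2.86% of all genes). The other 5, Hbegf, Plaur, Egr1, Fos and Lif, were above 0, as Dusp6 was. With columns scaled to the same sum that median was -0.15, with 9 of 16 below 0. Dusp6 was higher in Scr_600 under either scaling. In the isotonic knockout against Scr, Fosl1 (1.53), Epha2 (1.20) and Ereg (1.62) were at least 2-fold higher (1.73% of all genes) and the median was 0.37. In hypertonic medium the median of knockout against Scr was -0.06, with 7 above 0 and 9 below, where 52.2% of all genes were below 0. Emp1 (1.32) was at least 2-fold higher (3.76% of all genes). With columns scaled to the same sum that median was 0.09, with 10 above 0 and 7 below. Then 2 were at least 2-fold higher (654 of all genes), Emp1 and Fosb, the latter at 0.0858 FPKM in Scr_600 before scaling. Dusp5, Dusp7, Dusp10, Dusp14 and Dusp16 were above 0 in both media, with Dusp14 at 0.0009 in hypertonic medium. Egr1, an immediate early transcription factor, was at least 2-fold lower in the knockout in both media (2.44% and 3.68% of all genes). It had 8.68 FPKM in Scr_300, 11.0 in Scr_600, 2.20 in Nfat5-KO_300 and 1.35 in Nfat5-KO_600. Those values put the groups in the same order as Dusp1. Etv4 and Etv5, ETS factors that often accompany Dusp6 as ERK targets, were not highest in Scr_600 as Dusp6 and Egr1 were. Etv4 had 14.9, 14.0, 21.8 and 10.6 FPKM and Etv5 had 3.41, 1.73, 3.14 and 2.39 FPKM. In the difference of the hypertonic log2 ratios, Etv4 was at -0.95 and Etv5 at 0.56, against -2.10 for Dusp6. Over the 17 listed genes the median of this difference was -0.41 (-0.01 over all genes), and 13 were below 0 (52.0% of all genes). Fosl1, Egr1 and Plaur were at least 2-fold lower (3.16% of all genes). With columns scaled to the same sum the median was -0.30, 13 of 18 were below 0 and 2 were at least 2-fold lower (340 of all genes).

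**Figure D4:**
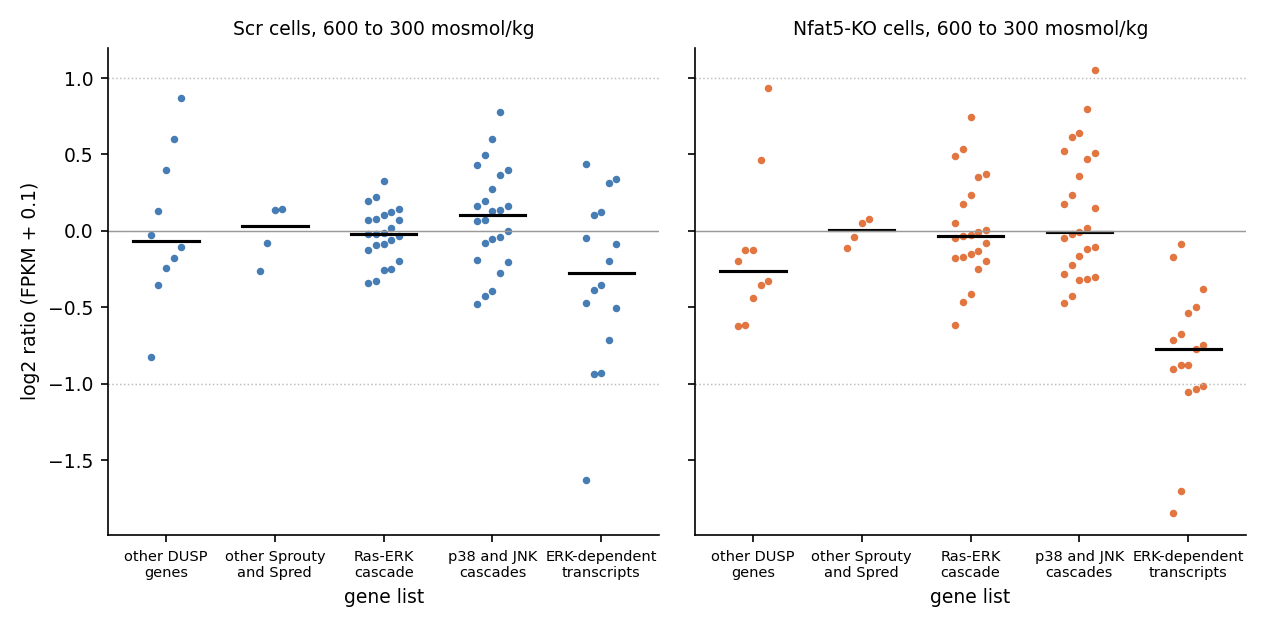
Log2 ratios of hypertonic to isotonic medium (FPKM + 0.1) in Scr cells (left) and Nfat5-KO cells (right) for the genes of 5 lists outside the 10, 1 point per gene with at least 0.5 FPKM in either group, black lines at the medians and dotted lines at 2-fold. The ERK-dependent transcripts lie at a median of -0.27 in Scr and -0.77 in Nfat5-KO cells, while the Ras-ERK cascade stays near 0 in both (-0.02 and -0.04).

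Immediate early transcripts are often short-lived through AU-rich stretches in their 3′ ends, so the letters AUUUA were counted in the longest annotated 3′ UTR of each gene. Dusp1 had 4 in 690 bases, or 5.80 per kb, and 2 copies of the longer, nonamer form of the element. Over 10765 expressed genes the median was 1.31 per kb, and 8.41% had the longer form. Dusp6 had 1 in 1190 bases and Dusp5 1 in 1109, and Dusp10 had 3 in 1113. Dusp7 and Dusp14 had 0, and Spry4 had 7 in 3559 bases. Dusp1 was the one of the 10 with the longer form. Of 6 genes whose products bind such stretches, 0 were 2-fold different in any of the 4 comparisons, which is near the share of all genes (4.17% to 10.4%), and their median log2 ratios in the 4 comparisons were between -0.18 and 0.04. The widest differences were in Hnrnpd (-0.68 in Nfat5-KO_600 against Nfat5-KO_300) and in Zfp36, which speeds the decay of such mRNAs and had 2.96 FPKM in Scr_300, 2.67 in Scr_600, 1.82 in Nfat5-KO_300 and 1.88 in Nfat5-KO_600.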

How the data were processed

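Total RNA of mpkCCD cultures was sequenced as poly-A libraries (NEBNext Ultra, paired ends). The authors cleaned the reads of adapters, poly-N and low quality, mapped them to GRCm38 (mm10) by HISAT2, and turned HTSeq gene counts into RPKM. The deposited FPKM values hold 1 column for each of the 4 groups, which come from 12 libraries. How libraries were combined, the annotation release and tool versions are not given in the sources used here. Depth is unknown, so no interval or detection limit was calculated.

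Of 54839 rows, 2436 held no value, 311 were exact duplicates and 37 symbols had several differing rows. Without these, 52015 genes remained. Log2 ratios of FPKM + 0.1 were taken where either group reached 0.5 FPKM. No test could be run on 1 value per group. At least 2-fold was counted. The fold counting was tested on simulated data with planted changes well above 2-fold, which does not bear on ratios near 2-fold. Positions and 3′ UTRs came from GENCODE M21 by symbol (13258 of 13414 expressed genes), and promoters from RefSeq (GRCm38.p6). Python 3.11.15 was used with pandas 2.3.3, numpy 2.4.6 and matplotlib 3.10.9. Named genes were all 10 genes, genes of the lists that were at least 2-fold different (or, where none was, the 2 with the widest difference) and the 5 closest profiles to Dusp6. Dusp8, Spry1, Mapk14, Nfat5, Etv5, Fos, Fosb, Hbegf and Lif were named after their values were seen. The 10 genes and all lists were chosen with earlier results of these data known. Alternatives were a pseudocount of 1 or 0.01, dropping the filter, a minimum mean of 1 FPKM, median-of-ratios factors, columns scaled to the same sum and a 1.5-fold threshold.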

Additional observations from a re-analysis of the deposited data

How the results depend on the processing

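No paired analysis was possible because the table holds 1 value per group, and for the same reason leaving out each replicate in turn and the replicate block could not be run. None of the 45 log2 ratios of the 9 genes changed sign under any alternative. With a pseudocount of 1 the number at least 2-fold higher was 0 in Nfat5-KO_300 against Scr_300 (Dusp5 at 0.97) and 0 in Nfat5-KO_600 against Scr_600 (Dusp4 at 0.95), the number at least 2-fold lower was 0 in Scr_600 against Scr_300, and that in the difference of the hypertonic ratios was 1, Dusp6. With columns scaled to the same sum the last 2 counts were also 0 and 1, and the medians of the 9 genes were 0.18 in Nfat5-KO_600 against Scr_600, -0.19 in Scr_600 against Scr_300, -0.36 in Nfat5-KO_600 against Nfat5-KO_300 and -0.17 in the difference. That scaling moved the median of all genes to 0.11, 0.09, 0.20 and 0.10 in these comparisons. It changed the split of all genes at least 2-fold higher and lower to 670 and 340 from 520 and 424 in the difference. Without a filter, Spry4 entered and the median in Nfat5-KO_600 against Scr_600 was 0.23.

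At a 1.5-fold threshold, Nfat5-KO_300 against Scr_300 had 3 higher (Dusp5, Dusp7 and Dusp10; 5.27% of all genes) and 1 lower (Dusp1; 6.21%), Nfat5-KO_600 against Scr_600 had 2 higher (Dusp4 and Dusp5; 9.84%), and Nfat5-KO_600 against Nfat5-KO_300 had 1 higher (Dusp4; 14.1%) and 5 lower (Dusp1, Dusp5, Dusp7, Dusp10 and Spry2; 13.8%). Most counts over all genes moved by over 1.5 times with the pseudocount, the filter and the threshold. In Scr_600 against Scr_300, 622 higher and 370 lower became 251 and 124 with a pseudocount of 1, 1098 and 737 without a filter, 352 and 201 with a mean of at least 1 FPKM, 1345 and 1165 at 1.5-fold, and 756 and 288 with columns scaled to the same sum. In the same order of the first 4 settings, 220 and 310 in Nfat5-KO_300 against Scr_300 became 48 and 87, 581 and 647, 106 and 153, and 670 and 789. Likewise 491 and 481 in Nfat5-KO_600 against Scr_600 became 135 and 203, 1086 and 798, 259 and 289, and 1285 and 1233. In Nfat5-KO_600 against Nfat5-KO_300, where the lower count moved by less than that with either filter, 812 and 534 became 259 and 230, 1422 and 789, 467 and 388, and 1836 and 1792. In the difference, 520 and 424 became 139 and 165, 1258 and 891, 235 and 228, and 1272 and 1174. The precision of single values cannot be given from 1 value per group. Reads and values per library were not analysed here.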
